A study of Rattus norvegicus with 6 samples.

Results

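Listed peptidases of the proximal tubule brush border were compared between kidneys of HQYDP and DM rats. The list held 8 genes, Anpep, Dpep1, Ggt1, Folh1, Mep1a, Mep1b, Dpp4 and Xpnpep2, chosen by name with earlier results of these data known. Of these, 6 were measured, each by 1 row of the array table, out of 18166 genes tested. Ggt1 and Mep1b were not analysed here. Each group held 3 male Sprague-Dawley rats, aged 17 weeks by the labels, and 1 Affymetrix Rat Gene 2.0 ST array was hybridized per rat with RNA of the kidney cortex. All 6 rats had diabetes induced with streptozotocin, a toxin of insulin-producing cells, at 60 mg/kg. The HQYDP group was then given the herbal medicine Qishen Yiqi dripping pill (QYDP) by gavage for 8 weeks, at 300 mg/kg/day, and the DM group was given saline. The dose, the sex and the cortex come from the methods of the study, since the labels name only the kidney. The model is one of insulin deficiency, and neither normal nor low-dose kidneys were analysed here, so the values do not show where a nondiabetic kidney would lie. Only the DM arrays carry a re-analysis mark in their labels. A batch that followed the groups cannot be told apart from the treatment in any value below.

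The brush border is the carpet of microvilli on the apical side of proximal tubule cells, and it is crowded with peptidases anchored in the membrane. They cut filtered peptides, hormones and glutathione in the tubular fluid into amino acids and small peptides, which apical carriers then take up. Anpep encodes aminopeptidase N, which removes neutral amino acids from the amino end. Dpp4 releases dipeptides from the amino end after proline or alanine, and Xpnpep2, the membrane form of aminopeptidase P, removes an amino-terminal residue that stands before proline. Ggt1 and Dpep1 act in sequence on glutathione, where Ggt1 removes the γ-glutamyl group and Dpep1 splits the cysteinylglycine that remains. Mep1a and Mep1b encode meprin α and meprin β, metalloendopeptidases of the astacin family, which are abundant in rodent kidney. Folh1 encodes glutamate carboxypeptidase II, which removes glutamate from the carboxyl end of peptides and of folate polyglutamates.

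Anpep, Folh1 and Mep1a were the members that passed the thresholds of the comparison below, and the 250 bases before their annotated start sites are shown because the 3 genes moved in the same direction. The sequences are those of RefSeq on GRCr8, where all 8 listed genes had an entry, and each is read along the gene's own strand. Capitals mark the letters GTTAAT, the core of the motif bound by HNF1, a transcription factor family of the proximal tubule. The window of Anpep is chr1:143195102-143195351 on the minus strand, that of Folh1 is chr1:149914036-149914285 on the minus strand and that of Mep1a is chr9:24971651-24971900 on the plus strand.
Anpep: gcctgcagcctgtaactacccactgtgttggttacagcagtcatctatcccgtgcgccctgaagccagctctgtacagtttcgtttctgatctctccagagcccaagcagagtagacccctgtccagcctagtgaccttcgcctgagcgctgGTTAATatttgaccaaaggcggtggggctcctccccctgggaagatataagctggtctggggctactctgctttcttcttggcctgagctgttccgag
Folh1: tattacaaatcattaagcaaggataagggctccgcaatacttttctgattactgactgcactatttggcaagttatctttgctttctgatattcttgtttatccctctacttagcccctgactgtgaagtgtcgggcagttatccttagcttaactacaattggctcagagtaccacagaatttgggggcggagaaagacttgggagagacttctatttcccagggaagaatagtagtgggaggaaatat
Mep1a: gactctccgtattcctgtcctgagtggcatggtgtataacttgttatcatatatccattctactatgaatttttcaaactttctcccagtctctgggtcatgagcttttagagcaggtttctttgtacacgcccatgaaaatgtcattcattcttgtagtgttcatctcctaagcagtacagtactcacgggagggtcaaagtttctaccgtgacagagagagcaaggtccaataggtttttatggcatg

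GTTAAT, or its reverse complement ATTAAC, was present in 6.45% of the 33469 rat windows of the same length. Among the 8 listed genes it was present in the windows of Anpep, at position -98 from the start, and of Mep1b. The letters CAAAGTCCA, a motif of HNF4, were on neither strand of any window of the 8, and on either strand in 0.338% of all windows. TATAAA was on neither strand of any of the 8, and on either strand in 12.9% of all. The motifs were chosen after the array values were known. The windows differed in base composition, with 55.6% G or C before Anpep, 41.6% before Folh1 and 42.0% before Mep1a. A match of letters is a description of the window and shows no binding.

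All 6 measured members of the list had a higher mean in HQYDP than in DM kidneys, and 3 of them passed the test. Of 3 measured apical peptidases outside the list, 2 had a higher mean and 1, Ace, was lower, with a log2 difference of -1.09. The shared direction thus describes the listed genes and not all apical peptidases. The 6 members had log2 differences from 0.29 to 0.80, with a median of 0.57, while the median over all genes tested was -0.0017. Anpep, Folh1 and Mep1a were higher at the study thresholds, which ask for a fold change over 1.5 with an unadjusted p under 0.05. None was lower. Thus 3 of 6 measured members were higher, where 1.46% of all genes were higher and 1.82% were lower by the same rule. The list was chosen with earlier results of these data known, so these shares are a description and test no enrichment. By limma the adjusted p of the members ran from 0.401 to 0.808, so none was under 0.05, and 3 members had an unadjusted p under 0.05. Over all genes 0.0165% had an adjusted p under 0.05. Folh1 and Mep1a are named in the gene ontology terms of the study, which were built from genes selected on these same arrays, so their passing is not independent evidence. In cortex RNA, fewer proximal tubule cells and less RNA per cell cannot be told apart.

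**Figure D1:**
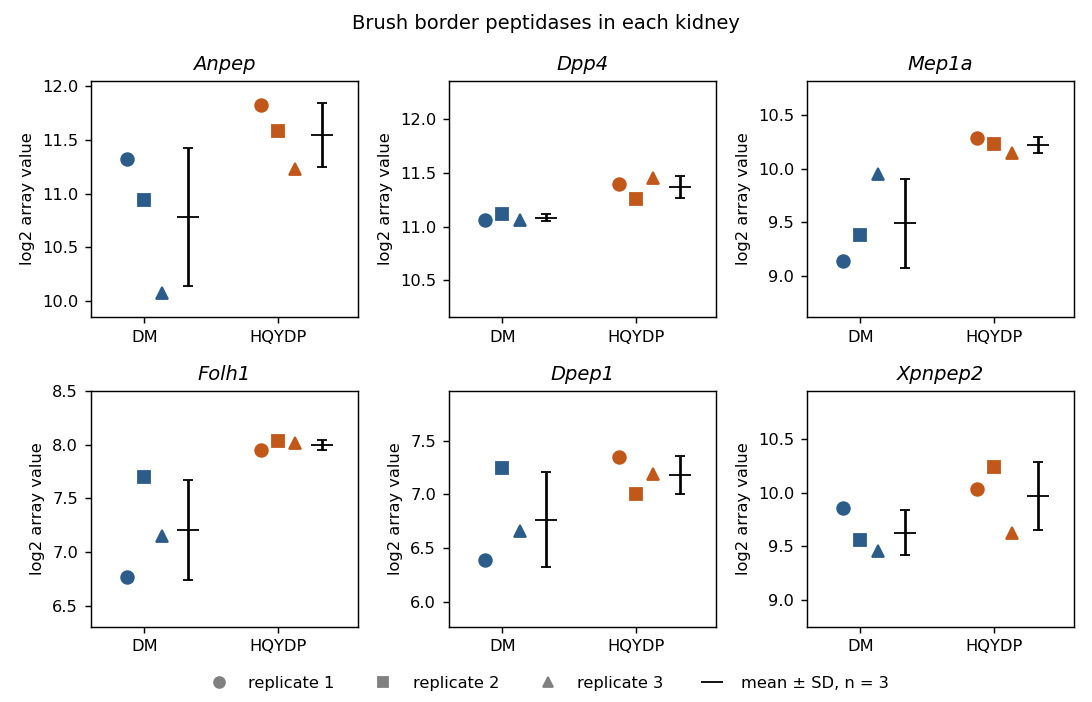
Log2 array values of the 6 measured brush border peptidases in each DM and HQYDP kidney, 1 point per array with the symbol for its replicate number, and the mean with SD (n = 3) beside each group. Each panel spans the same range of 2.2 log2 units around its own centre. The groups do not overlap for Folh1, Mep1a and Dpp4, and the DM points are spread widely for Anpep, Mep1a, Folh1 and Dpep1.

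Of the enzymes that act at the amino end, Anpep passed the study thresholds and Dpp4 and Xpnpep2 did not. The log2 values of Anpep were 11.82, 11.58 and 11.23 in HQYDP replicates 1 to 3 and 11.32, 10.94 and 10.07 in DM replicates 1 to 3. The groups overlapped, since DM replicate 1 lay above HQYDP replicate 3, and DM replicate 3 was the lowest array. The means were 11.55 ± 0.30 (SD, n = 3) and 10.78 ± 0.64 (SD, n = 3). The difference was 0.77 on the log2 scale (adjusted p = 0.588 by limma, standard error 0.30), a 1.70-fold higher value with a 95% interval of 0.10 to 1.43 on the log2 scale. The size of this difference leaned on DM replicate 3, without which it was 0.41. Anpep did not pass the thresholds without that array, without HQYDP replicate 1 or without HQYDP replicate 2, nor with the methods' t-test (unadjusted p = 0.134).

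Dpp4 had log2 values of 11.39, 11.26 and 11.45 in HQYDP and 11.06, 11.12 and 11.06 in DM. All HQYDP arrays lay above all DM arrays, and the DM values spanned only 0.061. The means were 11.37 ± 0.10 (SD, n = 3) and 11.08 ± 0.034 (SD, n = 3), a log2 difference of 0.29 (adjusted p = 0.737 by limma, 95% interval -0.033 to 0.61, standard error 0.14). The separation was clean but small, at 1.22-fold, and with the methods' t-test the unadjusted p was 0.00888 while the fold stayed below the threshold. Over all genes, 6.08% had every HQYDP array above every DM array. Dpp4 moved least when arrays were left out, with log2 differences of 0.25 to 0.34.

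Xpnpep2 had log2 values of 10.04, 10.24 and 9.62 in HQYDP and 9.86, 9.56 and 9.46 in DM. HQYDP replicate 3 lay among the DM arrays, below the DM mean, and HQYDP replicate 2 was the highest. The log2 difference was 0.34 (adjusted p = 0.808 by limma, 95% interval -0.10 to 0.78, standard error 0.20). Xpnpep2 and Anpep shared their low arrays, since in both genes DM replicate 3 was the lowest array and replicate 3 was the lowest within HQYDP.

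Mep1a, the meprin α subunit, passed the study thresholds and was higher in the HQYDP group. Its log2 values were 10.29, 10.23 and 10.14 in HQYDP and 9.14, 9.38 and 9.95 in DM, without overlap. DM replicate 3 stood close to the HQYDP arrays, while DM replicates 1 and 2 were clearly lower. The means were 10.22 ± 0.074 (SD, n = 3) and 9.49 ± 0.42 (SD, n = 3). The difference was 0.73 on the log2 scale (adjusted p = 0.421 by limma, 95% interval 0.26 to 1.20, standard error 0.21), which is 1.66-fold. Without DM replicate 3 it was 0.96, and Mep1a was then the member with an adjusted p under 0.05 (adjusted p = 0.0404 by limma), among 151 genes that passed in that setting. Without DM replicate 1 the difference was 0.55 and fell below the fold threshold.

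Genes that act on meprins showed no member past the study thresholds on all arrays, and 1 higher gene without HQYDP replicate 3 or DM replicate 1. Of 6 listed inhibitors, activators and sheddases 5 were measured, with a median log2 difference of -0.14. Klk1, a tissue kallikrein, had 0.48 (adjusted p = 0.603 by limma, standard error 0.19). Ahsg, which encodes the meprin inhibitor fetuin A, had 0.14 and its relative Fetub -0.14.

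Folh1 had the largest difference of the measured members and the tightest HQYDP values. Its log2 values were 7.95, 8.03 and 8.02 in HQYDP and 6.77, 7.69 and 7.14 in DM. The HQYDP arrays spanned 0.088 and lay above all DM arrays, which spanned 0.92. The means were 8.0 ± 0.047 (SD, n = 3) and 7.20 ± 0.46 (SD, n = 3), a log2 difference of 0.80 (adjusted p = 0.401 by limma, 95% interval 0.30 to 1.29, standard error 0.22), or 1.74-fold. Without DM replicate 1, its lowest array, the difference was 0.58 and just missed the fold threshold, which is 0.585 on the log2 scale. Without DM replicate 2 it was 1.04. With the methods' t-test Folh1 and Mep1a passed the study thresholds, with unadjusted p = 0.0419 and 0.0405.

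Of 4 measured genes of folate handling, Ggh, the lysosomal enzyme that trims folate polyglutamates, was higher at the study thresholds. Its log2 values were 9.57, 9.45 and 9.68 in HQYDP and 8.68, 8.77 and 8.83 in DM, without overlap, a log2 difference of 0.81 (adjusted p = 0.185 by limma, standard error 0.15). It passed whichever array was left out, with 0.76 to 0.87. The folate carriers Slc19a1 and Slc46a1 had 0.20 and -0.31, and the folate receptor Folr1 had -0.11. The study names Ggh in its gene ontology terms as well.

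Dpep1, the renal dipeptidase, had log2 values of 7.35, 7.0 and 7.19 in HQYDP and 6.39, 7.25 and 6.66 in DM. DM replicate 2 lay above 2 of the HQYDP arrays, and the other DM arrays lay below all of them. The means were 7.18 ± 0.17 (SD, n = 3) and 6.76 ± 0.44 (SD, n = 3), a log2 difference of 0.41 (adjusted p = 0.776 by limma, 95% interval -0.088 to 0.92, standard error 0.22). Dpep1 did not pass the study thresholds on all arrays. Without DM replicate 2 it passed them, with 0.66, and without DM replicate 1 it had 0.22.

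Other steps of glutathione synthesis and breakdown were described beside Dpep1. Of 15 listed genes 13 were measured, and 2 were higher and none lower at the study thresholds, with a median log2 difference of 0.19. Nat8, which acetylates cysteine conjugates on the way to mercapturates, had log2 values of 9.87, 9.99 and 9.72 in HQYDP and 9.15, 8.97 and 9.20 in DM. These did not overlap, with a log2 difference of 0.76 (adjusted p = 0.237 by limma, standard error 0.15). Gss, glutathione synthetase, had 9.83, 9.68 and 10.06 in HQYDP and 8.67, 8.76 and 9.68 in DM. DM replicate 3 lay within the HQYDP range of Gss, as it lay near that range for Mep1a, and the log2 difference was 0.82 (adjusted p = 0.466 by limma, standard error 0.26). Gclc and Gclm, the subunits of glutamate-cysteine ligase, had 0.45 and 0.43, below the fold threshold. Gss did not pass with the methods' t-test, and Nat8, which the study names in its terms, did. The list had 4 higher genes without DM replicate 3.

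**Figure D2:**
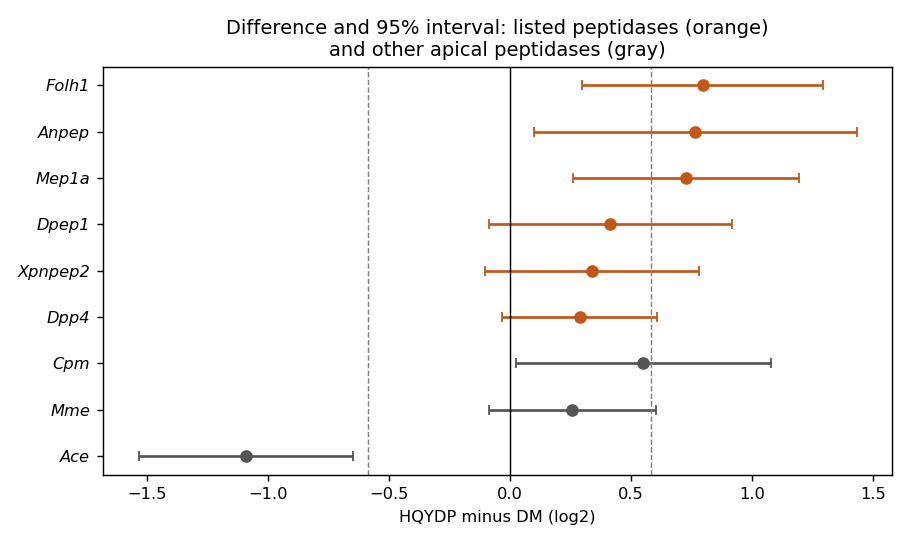
HQYDP minus DM differences on the log2 scale, with 95% intervals from limma, for the 6 measured brush border peptidases in orange and the 3 measured peptidases of other apical families in gray. Dashed lines mark a fold of 1.5 in either direction. The orange points lie between 0.29 and 0.80, and Ace lies at -1.09.

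Peptidases of the apical membrane outside the list did not all share this direction. Of 5 such genes 3 were measured. Ace, angiotensin-converting enzyme, which removes dipeptides from the carboxyl end, had log2 values of 6.47, 6.63 and 6.31 in HQYDP and 7.33, 7.39 and 7.96 in DM. It was lower at the study thresholds without overlap, with a log2 difference of -1.09 (adjusted p = 0.185 by limma, 95% interval -1.53 to -0.65, standard error 0.20), and it is named in the terms of the study. Mme, the endopeptidase neprilysin, had 11.28, 10.96 and 11.07 in HQYDP and 10.81, 10.78 and 10.95 in DM. Every HQYDP value of Mme lay above the DM values, but the difference of 0.26 did not pass (95% interval -0.088 to 0.61, adjusted p = 0.823 from limma). Cpm, a carboxypeptidase that removes basic residues, had 0.55 with an unadjusted p of 0.0415, which missed the fold threshold. Its 95% interval, 0.026 to 1.08, lay above 0, as did those of Anpep, Folh1 and Mep1a, and that of Ace lay below 0. This list had 1 higher gene as well when HQYDP replicate 1, HQYDP replicate 3 or DM replicate 1 was left out.

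Listed relatives of the members mostly stayed near 0. Their DM means ran from 2.68 to 8.94 on the log2 scale. Some lay under the lower quartile of the arrays, where a difference near 0 says little. Of 26 relatives 25 were measured, and none was higher, except 1 without DM replicate 2. Bmp1, a secreted astacin protease of procollagen processing related to the meprins, was lower, with log2 values of 5.70, 5.26 and 5.16 in HQYDP and 6.26, 6.32 and 5.81 in DM (log2 difference -0.76, standard error 0.20, adjusted p = 0.364 from limma). The median of the relatives was 0.027. Naaladl2, a relative of Folh1, had the highest difference, 0.41, and Erap1 and Dpep2 each had -0.40. Of 13 peptidases inside the cell none passed on all arrays and 1 was higher without HQYDP replicate 3 or DM replicate 3, with a median of -0.030, and Cndp2, a cytosolic dipeptidase that also splits cysteinylglycine, had 0.48 (adjusted p = 0.659 by limma, standard error 0.21).

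The listed carriers that take up the products were not higher as a list. Of 16 peptide and amino acid carriers 15 were measured, 1 was higher and none lower, and the median log2 difference was -0.073. The higher gene was Slc15a2, the high-affinity peptide transporter PEPT2. It had log2 values of 10.02, 9.77 and 9.68 in HQYDP and 8.99, 8.80 and 9.27 in DM, without overlap, a log2 difference of 0.80 (adjusted p = 0.258 by limma, standard error 0.18), which passed whichever array was left out, with 0.69 to 0.93. Slc3a1, the heavy chain of the apical cystine carrier, had 0.40 without overlap, and its partner Slc7a9 had -0.42. Slc15a1, the low-affinity transporter PEPT1, had 0.32, and the neutral amino acid carrier Slc6a19 had -0.24. Slc15a2 is named in the terms of the study. The study also names Slc7a12 and Slc7a13 under neutral amino acid transport. Both were kept with the late proximal markers rather than in this list, and both were higher at the study thresholds. Their log2 differences were 3.16 and 1.28 (adjusted p = 0.0182 and 0.183 by limma).

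Structural genes of the microvillus and its other enzymes did not pass the thresholds. None of the 11 measured structural genes was past them in either direction, with a median log2 difference of 0.14. Vil1, which encodes the actin bundler villin, had -0.023 and Pls1, the bundler plastin 1, had 0.44 (adjusted p = 0.550 by limma, standard error 0.16). None of 5 other brush border enzymes passed, with a median of 0.062, from Treh, which splits trehalose, at -0.22 to Nt5e, which forms adenosine from AMP, at 0.40. The 3 measured transcription factors of the proximal tubule, Hnf4a, Hnf4g and Nr1h4, had 0.26, 0.21 and 0.31 and did not pass.

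**Figure D3:**
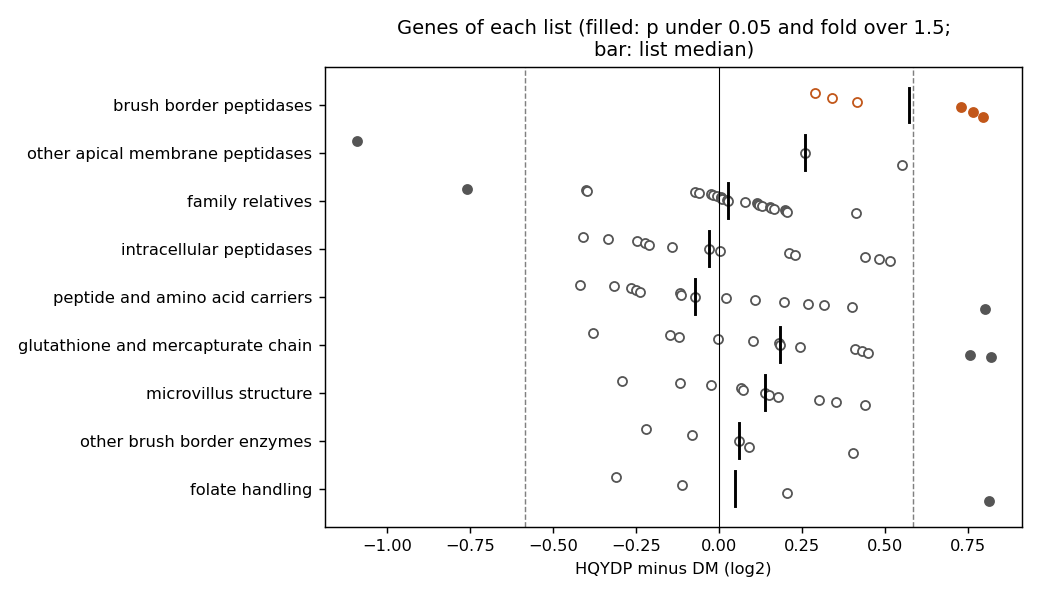
HQYDP minus DM differences on the log2 scale for each measured gene of the brush border peptidases and of 8 related lists, 1 point per gene, filled where the gene passed the study thresholds, with a black bar at the median of each list and dashed lines at a fold of 1.5. The peptidases have 3 filled points and a median of 0.57, and the medians of the other lists lie between -0.073 and 0.26.

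The 6 measured members did not vary alike among the DM rats. DM replicate 1 was the lowest array for Dpep1, Folh1, Mep1a and Dpp4, and DM replicate 3 the lowest for Anpep and Xpnpep2. Within DM, replicate 1 was the highest array for Anpep and Xpnpep2, replicate 2 for Dpep1, Folh1 and Dpp4, and replicate 3 for Mep1a. For all 6 the highest array was an HQYDP array and the lowest a DM array, which held for 30.3% of all genes. That share is over genes of either direction, and 49.7% of all genes had a difference above 0, as all 6 members had. The SD was larger in DM than in HQYDP for 4 of the 6, all but Dpp4 and Xpnpep2, and for 64.4% of all genes.

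**Figure D4:**
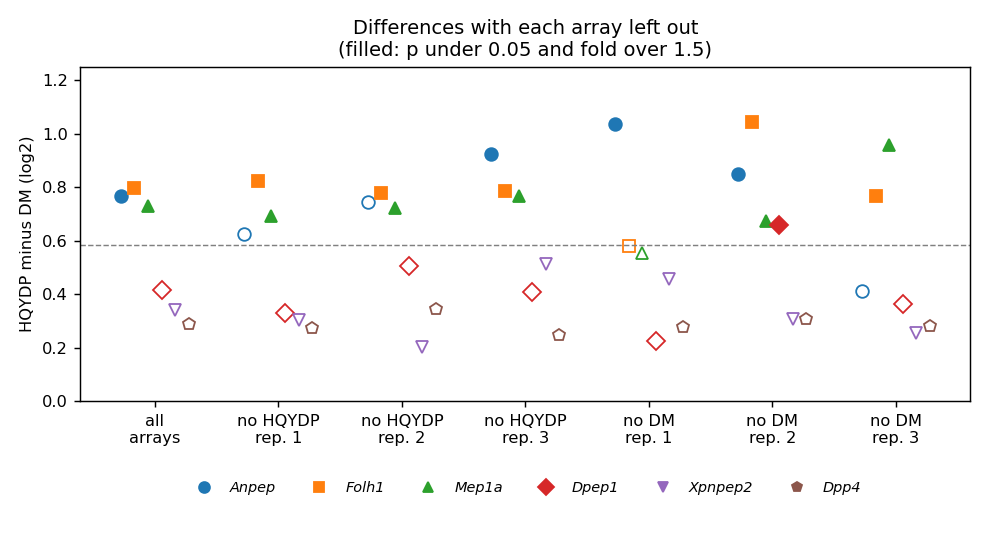
HQYDP minus DM differences on the log2 scale for the 6 measured members with all arrays and with each array left out in turn, filled where the gene passed the study thresholds, with a dashed line at a fold of 1.5. All values lie above 0, Anpep drops to 0.41 without DM replicate 3, and Folh1 and Mep1a drop below the line without DM replicate 1.

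The number of members past the thresholds depended on single arrays. It was 3 on all arrays, 1 without DM replicate 1, where only Anpep passed, and 4 without DM replicate 2, where Dpep1 passed as well. It was 2, namely Folh1 and Mep1a, when either replicate 1 or replicate 2 of HQYDP was left out, and also without DM replicate 3. Without DM replicate 3 the median of the members was 0.39. The log2 differences of all 6 were above 0 in the 9 settings that could move them, which were each array left out, array weights and the 2 other scalings.

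The mean over the members separated the groups, as did those of several marker lists, while other marker lists overlapped. For each array the log2 values were set relative to the mean of each gene over the 6 arrays and averaged over the list. The peptidase mean was 0.37, 0.29 and 0.17 in HQYDP and -0.35, -0.11 and -0.38 in DM. No early proximal tubule marker of 13 measured passed the thresholds, and 9 of them had a lower mean in HQYDP, with a median log2 difference of -0.088. The lactate carrier Slc5a12 had -0.59 and the glucose transporter Slc2a2 had -0.55 (unadjusted p = 0.0348, adjusted p = 0.611 by limma), while the endocytic receptors Lrp2 and Cubn had 0.096 and -0.12. The list had 1 lower gene with the replicate block, with array weights and without HQYDP replicate 2, and 2 without DM replicate 3. That list ranged from -0.29 to 0.17 in HQYDP and from -0.047 to 0.16 in DM, so its groups overlapped. Late proximal markers ranged from 0.27 to 0.54 in HQYDP and from -0.54 to -0.31 in DM. Of 7 measured, 3 were higher, Slc7a12, Slc7a13 and Slco1a6, and without DM replicate 3 there were 4 higher and 1 lower. Slc7a12 had by far the largest log2 difference, 3.16, and the list median was 0.41. Agt had 0.41, Slc5a1 0.049, Acsm3 -0.11 and Cyp2e1 -0.30. Thick ascending limb markers, which belong to cells without a brush border, ranged from 0.26 to 0.31 in HQYDP and from -0.37 to -0.20 in DM, with 3 of 5 higher, and 1 of 5 without DM replicate 3. No podocyte, distal convoluted tubule, principal cell or endothelial marker passed, although 1 podocyte and 1 distal convoluted tubule marker did without DM replicate 1. All 3 measured podocyte markers were still higher without overlap, with a median log2 difference of 0.47. Their list mean was 0.095 to 0.30 in HQYDP and -0.39 to -0.14 in DM. The distal convoluted tubule list also separated, at 0.059 to 0.29 and -0.43 to -0.018, while the principal cell and endothelial lists overlapped. Of 4 intercalated cell markers 2 were higher, and 1 without HQYDP replicate 2. The intercalated list mean was 0.11 to 0.48 in HQYDP and -0.54 to -0.145 in DM. Of 5 fibroblast markers 2 were lower, with 0 by the methods' t-test, 0 without HQYDP replicate 2 or DM replicate 2, 4 without DM replicate 3 and 5 without DM replicate 1.

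Markers of injury and of macrophages moved the other way. Of 10 tubular injury markers 6 were lower at the study thresholds, and the list mean was -0.80 to -0.35 in HQYDP against 0.90, 0.96 and -0.15 in DM. All 6 macrophage and monocyte markers were lower, with list means of -0.54 to -0.19 in HQYDP and 0.57, 0.97 and -0.30 in DM. By the methods' t-test 2 of the injury markers passed and none of the macrophage markers. Without DM replicate 2 the injury list had 4 lower genes and the macrophage list 1, and the macrophage list also had 1 without HQYDP replicate 2 and 2 without HQYDP replicate 3 or DM replicate 1. DM replicate 3 lay near the HQYDP arrays in both lists. Its peptidase mean was the lowest of the 6, at -0.38, but that of DM replicate 1 was close, at -0.35. Among the members, DM replicate 3 was the lowest array only for Anpep and Xpnpep2, and for Mep1a it stood close to the HQYDP arrays. Anpep is also known from myeloid cells and Dpp4 from T cells. Of 5 lymphocyte markers none passed on all arrays, 1 was lower without HQYDP replicate 1 and 2 without DM replicate 3, and their list mean was -0.39 to 0.14 in HQYDP and -0.32 to 0.54 in DM. The part of these cell types in the peptidase values was not tested.

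**Figure D5:**
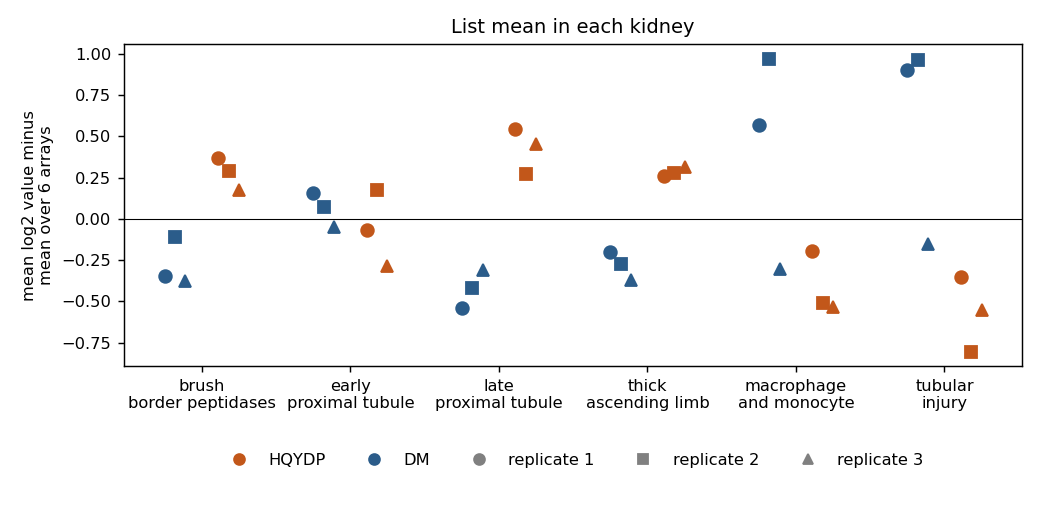
List mean per array, as the log2 value minus the mean of the gene over the 6 arrays, averaged over the list, for the brush border peptidases and 5 marker lists, with DM in blue and HQYDP in orange and the symbol for the replicate number. The HQYDP arrays lie above the DM arrays for the peptidases (0.17 to 0.37 against -0.38 to -0.11), late proximal tubule and thick ascending limb, the groups overlap for early proximal tubule and macrophage markers, and the HQYDP arrays lie below for tubular injury.

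Profiles over the 6 arrays were also compared with every other gene tested, by the root mean square difference between values set relative to each gene's own mean. Closest to Folh1 was Ahcyl2, a relative of adenosylhomocysteinase, at 0.084 on the log2 scale, with a log2 difference of 0.71 between the groups. Vom2r62 and Tsx followed at 0.12 and 0.15. Closest to Mep1a was the kinase gene Mapk4 at 0.098, followed by Or12d2b at 0.10 and Slc25a52 at 0.11. Closest to Anpep were Or1o1 at 0.13, Ten1 at 0.14 and Prg4 at 0.15. Some of these genes were dim. Vom2r62 had log2 means of 3.05 in HQYDP and 2.22 in DM, and Slc25a52 had 4.25 and 3.46, against 9.54 and 8.83 for Ahcyl2. With 6 arrays and 18166 genes, close profiles are a description only.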

How the data were processed

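The authors deposited log2 values per transcript for 1 Affymetrix array of each rat, taken here as already normalized. Their summarization and normalization were not given in the sources used here. Their range, 0.35 to 13.59, was the basis for reading them as log2. The array medians differed by at most 0.15. Of 36685 rows, 18511 were paired with 1 gene symbol of the platform annotation, and each of 18166 genes was represented by its row of highest mean. Coordinates are given only for the RefSeq promoter windows.

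HQYDP and DM were compared across all genes with limma 3.58.1 (R 4.3.3), two-sided and without covariates, using lmFit, eBayes and Benjamini-Hochberg adjustment. The study thresholds combine a fold over 1.5 with an unadjusted p under 0.05. Of 8 members and 22 further lists, every member, each list gene past these thresholds or up to 4 with the largest differences, and the 3 most alike profiles of each passing member could be named. Fetub, Slc6a19, Vil1, Lrp2 and Cubn fall outside that rule and were named for their known roles after their values were seen. Members and lists were chosen with earlier results of these data known. The fit was tested on simulated data. Alternatives were each array left out, other scalings, filters, row and fold rules, array weights, a replicate block, an intensity trend, Welch's test and the methods' t-test. An exact permutation test of 3 against 3 cannot go below 0.1. Arrays carry no counts, and their number limits the precision. Nothing in the labels says how rats were housed or paired, so each array was treated as an independent rat. The limma p-values set each difference against the variation among arrays within groups, moderated across all genes.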

Additional observations from a re-analysis of the deposited data

How the results depend on the processing

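Of 18 alternatives, 9 changed only the test, the rows tested or the threshold and left the log2 differences of the 6 measured peptidases as they were. In the other 9 these differences stayed above 0. The count of peptidases past the study thresholds was 2 with the methods' t-test and 2 over all rows of the table. Anpep did not pass in either, with an unadjusted p of 0.134 by the t-test and 0.0525 by limma over all rows. The count was 0 with Welch's test and 0 with a fold over 2, and 1 to 4 when arrays were left out in turn. The median of the peptidases was 0.39 to 0.66 over those left-out settings. The count of all genes past the thresholds, 596, was 278 with the methods' t-test, 200 with Welch's test, 1121 over all rows of the table, 123 with a fold over 2, 1340 with no fold minimum and 504 to 1109 with arrays left out. The number of genes in all with an adjusted p under 0.05, 3 by limma, was 8 with an intensity trend, 16 with array weights and 9 with the filter on dim genes. It was 0 over all rows (1888 rows with an unadjusted p under 0.05), 0 with Welch's test (807), 0 with the methods' t-test (1145) and 0 to 151 with arrays left out. The fit with the replicate block passed the same number of peptidases, 3, and 661 genes in all, with 2 genes at an adjusted p under 0.05. Deviations of same-numbered arrays from their group means correlated at 0.14, -0.083 and 0.21 across genes, so the numbers were not taken to pair the rats. Arrays have no counts, and no signal over background was given, so a limit of detection could not be set.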
